A study of Mus musculus with 10 samples.

Results

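The beta subunit genes Atp1b1, Atp1b2 and Atp1b3 and the FXYD genes Fxyd1, Fxyd6 and Fxyd7 encode the small partner proteins of the sodium-potassium pump. These 6 genes were taken by symbol from the 50763 genes of the count table, by a rule that uses no measured value. The libraries came from whole lens epithelia of 3-week-old mice on the FVB/N background. They comprised 3 wild-type (WT) pools, 3 pools of the OVE853 line and 4 pools of the OVE918 line. Both lines are homozygous for a transgene in which a lens-specific alpha A-crystallin promoter drives a self-activating, secreted human TGF-β1, and their lenses carry anterior subcapsular plaques at this age. A WT or OVE853 pool held explants of up to 9 mice, and an OVE918 pool held explants of up to 7 mice. Each explant held the whole epithelium, so plaque and surrounding cells were mixed. In such bulk samples, fewer cells of a type and less RNA per cell cannot be told apart.

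The sodium-potassium pump moves sodium out of and potassium into the cell at the cost of ATP. Its alpha subunit carries out transport, and its glycosylated beta subunit is needed for folding and delivery of the pump to the plasma membrane. Proteins with an FXYD motif bind the assembled pump and tune its affinity for ions. The lens has no blood supply, and pump activity in its epithelium keeps fiber cells low in sodium and transparent.

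Library totals ran from 24073311 to 31908525 counts. Levels are given as normalised read counts (CPM) on the TMM scale, or as FPKM (CPM per kilobase of exon) where genes are compared with each other. An edgeR quasi-likelihood test over all 11098 genes tested gave log2 fold changes with their standard errors (SE) and a Benjamini-Hochberg false discovery rate (FDR). A gene was called when its FDR was at most 0.05 and its absolute log2 fold change at least 1. The pools are separate groups of mice, and p-values measure only the spread between these pools. The mouse Tgfb1 row, the check of the labels, rose by 2.69 on the log2 scale in OVE853 and by 3.83 in OVE918, with edgeR FDR of 7.06e-07 and 1.03e-07. The paper states that this signal combines the mouse gene with human transgene reads that map to it. All 6 lens epithelium markers were detected in every library. WT replicate 3 stood apart from the other WT pools. Its summed CPM of 9 retinal neuron markers was 970.6, against 95.5 and 115.0 in WT replicates 1 and 2, and values of the members are given below with and without it.

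On the GRCm39 build, Atp1b1 lies on chromosome 1 (164264678 to 164285957, minus strand), Atp1b2 on chromosome 11 (69487651 to 69496851, minus strand) and Atp1b3 on chromosome 9 (96214674 to 96246814, minus strand). Fxyd6 lies on chromosome 9 (45281302 to 45307457, plus strand), 3509 bases before Fxyd2. Fxyd7 (30741936 to 30750961) and Fxyd1 (30751092 to 30756677) are neighbours on the minus strand of chromosome 7. The annotated ends of Fxyd5 and Fxyd7 are 29 bases apart and those of Fxyd7 and Fxyd1 are 130 bases apart, so counting by strand does not separate reads that run past one of these genes.

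Of the 6 members, 4 had an entry in the RefSeq promoter table used, and each entry was placed on GRCm39 by an exact match. The sequences before the start sites of Atp1b1 and Atp1b3 are shown because their windows held the longest stretches outside annotated exons. The longest such stretch was 0 bases in the Fxyd1 window and 69 bases in the Fxyd6 window, which are not printed. Only the stretch of each 250-base window outside annotated exons is printed, 5′ to 3′ on the gene's strand. For Atp1b3, an exon of another annotated transcript lies upstream of the printed stretch. Capitals mark matches on either strand to CAGAC (a SMAD box), CACCTG (an E-box), GGGCGG (a GC box) and CCAAT.
Atp1b1, chr1:164285958-164286174, minus strand, 217 bases: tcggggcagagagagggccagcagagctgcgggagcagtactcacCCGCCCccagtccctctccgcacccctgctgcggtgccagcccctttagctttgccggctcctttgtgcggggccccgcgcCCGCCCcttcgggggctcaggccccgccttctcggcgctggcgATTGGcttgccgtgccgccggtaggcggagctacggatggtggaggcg
Atp1b3, chr9:96246534-96246690, minus strand, 157 bases: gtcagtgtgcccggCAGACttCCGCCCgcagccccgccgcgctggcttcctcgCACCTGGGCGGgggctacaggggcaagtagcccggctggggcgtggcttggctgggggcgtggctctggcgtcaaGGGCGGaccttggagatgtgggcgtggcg
The Atp1b1 window held 2 GC boxes and 1 CCAAT match, all in the printed stretch, and no CAGAC or CACCTG. The Atp1b3 window shown held 5 GC boxes, 3 of them in the printed stretch, with 1 CAGAC and 1 CACCTG, and the CACCTG overlaps a GC box. A second Atp1b3 entry, whose window lies within annotated exons of the gene and is not printed, held 1 CAGAC, 0 CACCTG, 0 GGGCGG and 0 CCAAT. Of 32841 promoter windows of 250 bases, 42.2% held CAGAC, 17.2% CACCTG, 32.7% GGGCGG and 33.9% CCAAT. The motifs were chosen after the sequences had been seen, and these matches are descriptions of letters, not of binding sites.

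In OVE918 epithelia, Atp1b1 and Atp1b3 were lower than in WT and Fxyd1 was higher. In OVE853 epithelia Atp1b1 was lower, by less than 2-fold. Atp1b2, Fxyd6 and Fxyd7 were highest in the single WT pool rich in retinal neuron transcripts, and their differences from WT did not pass the test. Of the 5 members that passed the expression filter, 0 were called in OVE853, where 3 had an unadjusted p under 0.05 and DESeq2 called 1, and the call rule took 4.42% of all genes. In OVE918, 1 of the 5 was called against 5.60% of all genes. By FDR alone, 1 of 5 passed in OVE853 and 3 of 5 in OVE918, against 15.8% and 19.0% of all genes. The groups did not overlap for 3 of 5 members in each comparison, against 45.4% of genes in OVE853 and 27.2% in OVE918. The median log2 fold change of the 5 was -0.71 in OVE853 and -0.68 in OVE918, against -0.01 and 0.01 over all genes, and without WT replicate 3 it was -0.30 and -0.54, against 0.00 and 0.02. Both comparisons use the same WT pools.

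**Figure D1:**
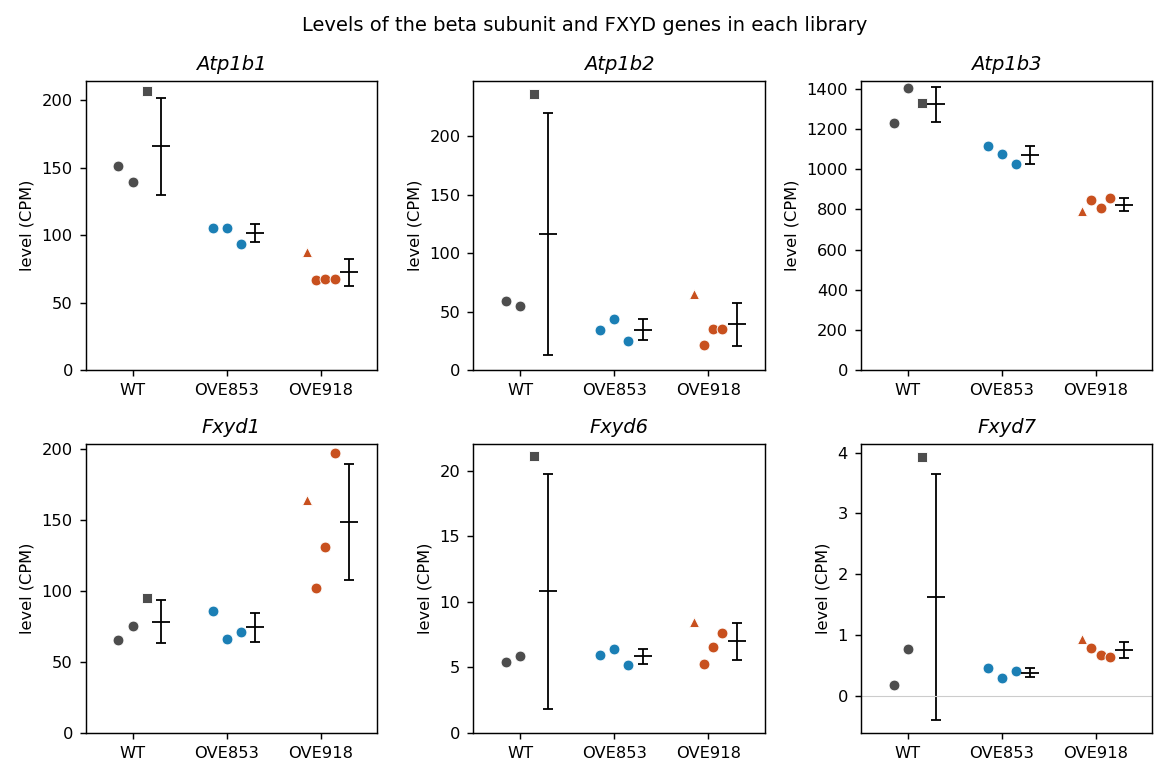
Levels of the 6 members in CPM, 1 point per library, in WT (n = 3), OVE853 (n = 3) and OVE918 (n = 4), with the group mean and SD in black beside the points. The square is WT replicate 3 and the triangle OVE918 replicate 1. Atp1b1 and Atp1b3 step down from WT to OVE853 to OVE918, Fxyd1 is higher in OVE918, and the square stands far above the other points for Atp1b2, Fxyd6 and Fxyd7.

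Atp1b1 encodes beta 1, the beta subunit found in most epithelia, which also takes part in adhesion between cells. Its levels were 151.4, 139.3 and 207.2 CPM in the WT pools, 105.2, 105.8 and 93.6 CPM in OVE853, and 87.4, 66.9, 67.7 and 68.0 CPM in OVE918. The 3 groups did not overlap, and each OVE918 pool was below each OVE853 pool. OVE918 and OVE853 did not overlap for 3 of 5 members, against 3277 of 11098 genes tested. The fall was 0.71 on the log2 scale in OVE853 (log2 fold change -0.71, SE 0.16, edgeR FDR 0.0131), short of the minimum for a call. In OVE918 Atp1b1 was called (log2 fold change -1.20, SE 0.14, edgeR FDR 0.000243), and the WT mean was 2.29-fold higher. WT replicate 3 was 1.43 times the mean of the other WT pools, and without it the log2 fold changes were -0.52 (edgeR FDR 0.0242) and -1.01 (edgeR FDR 0.000217). Leaving out OVE853 replicate 3 took the OVE853 difference to an edgeR FDR of 0.059.

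Atp1b3 encodes beta 3 and was the most abundant beta subunit transcript in all 10 libraries. Its levels were 1232, 1403 and 1331 CPM in WT, 1114, 1076 and 1024 CPM in OVE853, and 793, 845, 805 and 855 CPM in OVE918. Again the groups did not overlap. In OVE918 the level fell by 0.68 on the log2 scale (SE 0.09, edgeR FDR 0.000443), a WT mean 1.60-fold higher, which is below the fold needed for a call. In OVE853 the log2 fold change was -0.30 (SE 0.10), with an edgeR FDR of 0.0584. WT replicate 3 was 1.01 times the mean of the other WT pools, and the OVE918 value without it was -0.68 (edgeR FDR 0.000787).

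Atp1b2 encodes beta 2, also known as the adhesion molecule on glia, and is a subunit of neurons and glia. Its levels were 58.9, 54.8 and 236.1 CPM in WT, 34.7, 43.6 and 25.3 CPM in OVE853, and 65.1, 21.3, 35.1 and 35.0 CPM in OVE918. OVE853 lay below every WT pool, whereas OVE918 replicate 1 lay above 2 of them. The log2 fold changes were -1.76 (SE 0.62, edgeR FDR 0.088) and -1.58 (SE 0.56, edgeR FDR 0.087). Without WT replicate 3 they were -0.72 (edgeR FDR 0.295) and -0.54 (edgeR FDR 0.403). DESeq2, which used all libraries, called the gene in both lines, at adjusted p of 0.0329 and 0.0409.

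Fxyd1 encodes phospholemman, a pump regulator controlled by phosphorylation in heart and muscle. Its levels were 65.1, 75.0 and 95.1 CPM in WT, 85.6, 66.1 and 71.2 CPM in OVE853, and 164.3, 102.2, 131.3 and 197.0 CPM in OVE918. All 4 OVE918 pools were above all other pools, while OVE853 and WT overlapped. In OVE918 the level rose by 0.92 on the log2 scale (SE 0.21, edgeR FDR 0.0125), a 1.90-fold higher mean, just under the fold needed for a call. Without WT replicate 3 the value was 1.08 (edgeR FDR 0.00823) and without OVE918 replicate 2 it was 1.07 (edgeR FDR 0.0031), and both pass the call rule. In OVE853 the log2 fold change was -0.08 (SE 0.22, edgeR FDR 0.827), and it was 0.08 without WT replicate 3.

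Fxyd6 encodes phosphohippolin, an FXYD protein known from brain and inner ear. Its levels were 5.41, 5.89 and 21.1 CPM in WT, 5.95, 6.37 and 5.21 CPM in OVE853, and 8.48, 5.25, 6.58 and 7.61 CPM in OVE918. Apart from WT replicate 3, all libraries lay between 5.21 and 8.48 CPM. The log2 fold changes of -0.89 (edgeR FDR 0.19) and -0.64 (edgeR FDR 0.321) changed sign without that pool, to 0.05 (edgeR FDR 0.915) and 0.30 (edgeR FDR 0.387).

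Fxyd7, which encodes a brain FXYD protein, was near the lower end of what these libraries measure. It had 4, 20 and 112 counts in WT, 15, 8 and 12 counts in OVE853, and 22, 21, 18 and 14 counts in OVE918. It did not reach 2 FPKM in 5 libraries and was tested with edgeR's own filter. The log2 fold changes there were -2.04 (SE 0.80, edgeR FDR 0.11) and -1.07 (SE 0.71, edgeR FDR 0.327), and without WT replicate 3 they were -0.34 (edgeR FDR 0.752) and 0.65 (edgeR FDR 0.494).

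Tested directly against each other, OVE918 and OVE853 differed for 0 of 5 members by the call rule, which took 0.487% of all genes. By FDR alone the count was also 0, against 1.32% of genes, and 3 members had an unadjusted p under 0.05. These 3 were Atp1b1 (log2 difference, OVE918 minus OVE853, -0.49, edgeR FDR 0.103), Atp1b3 (-0.38, edgeR FDR 0.0703) and Fxyd1 (1.00, edgeR FDR 0.052), and DESeq2 called Fxyd1 at an adjusted p of 0.000325. WT replicate 3 belongs to neither line and enters this comparison through the shared spread estimate, the filter, the scaling and the FDR adjustment. Without that pool all 3 passed the FDR in edgeR, at 0.0342, 0.0408 and 0.0263. The difference of Fxyd1 then also met the call rule. The larger distance of OVE918 from WT is therefore given as values for these genes, and the difference between the lines did not pass the test with all libraries.

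Among the other FXYD genes, Fxyd5, which encodes dysadherin, a protein that weakens adhesion between cells, was the 1 gene that rose past the call rule in both lines. Its level was 0.097, 0.417 and 0.634 FPKM in WT, 1.07 to 2.53 FPKM in OVE853 and 2.88 to 5.94 FPKM in OVE918, so it passed the filter through transgenic libraries only. The groups did not overlap, and the log2 fold changes were 2.26 (SE 0.52, edgeR FDR 0.0158) and 3.36 (SE 0.49, edgeR FDR 0.000873). Fxyd2, Fxyd3 and Fxyd4 stayed under the filter. Atp1b4 had 0 counts in every library, which allows a level of up to 3 counts per library, for counting error only.

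**Figure D2:**
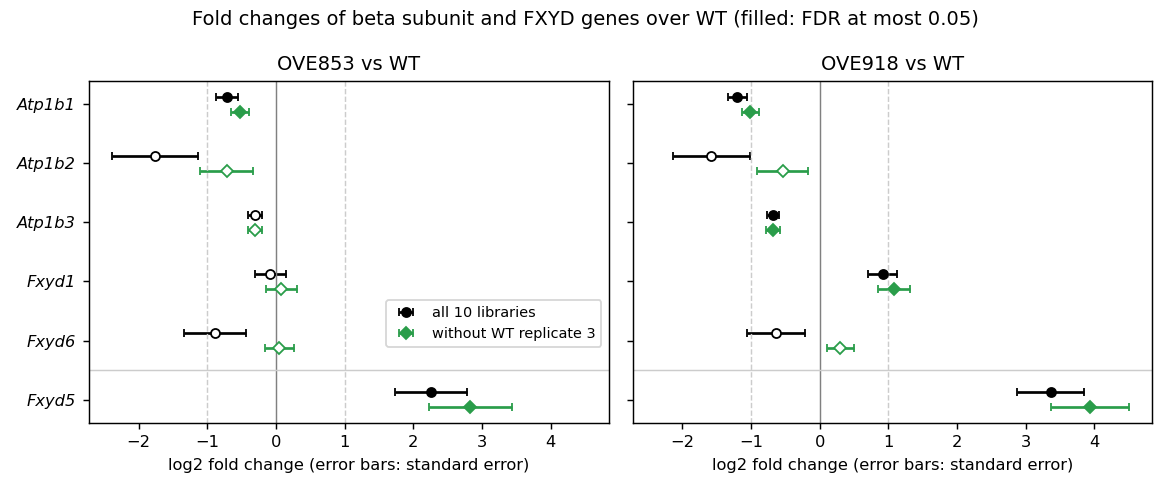
Log2 fold change against WT for the 5 members tested (above the grey line) and for Fxyd5, in OVE853 (left) and OVE918 (right), with SE bars. Black circles use all 10 libraries, green diamonds leave out WT replicate 3, filled symbols have an FDR of at most 0.05, and dashed lines mark the fold needed for a call. Atp1b1 and Fxyd5 stay filled and on their side of 0 in both fits, while Atp1b2 and Fxyd6 move toward or past 0 without WT replicate 3.

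In the wider transport list, 1 of 2 regulating genes, 0 of 4 calcium pumps and 1 of 7 carriers tested were called in OVE853. In OVE918 the counts were 1 of 2, 1 of 4 and 1 of 7. The call rule took 4.42% of all genes in OVE853 and 5.60% in OVE918. Of 8 pump-associated and regulating genes, 7 had a row under the symbol searched and 2 were tested. Sgk1, a kinase that raises the number of sodium channels and pumps at the membrane, fell in both lines (log2 fold changes -3.12 and -2.74, edgeR FDR 3.96e-05 and 1.88e-05). Of 9 calcium pumps, 4 were tested, and Atp2b4, a plasma membrane calcium pump, was called higher in OVE918 (1.10, edgeR FDR 0.00314), with 0.90 in OVE853 (edgeR FDR 0.0173). Without WT replicate 3 Atp2b4 was called in both lines, at 1.14 in OVE853 (edgeR FDR 0.00333). Atp2a2, the calcium pump of the endoplasmic reticulum, rose by FDR alone, by 0.45 in OVE853 (edgeR FDR 0.045) and 0.53 in OVE918 (edgeR FDR 0.0138), and without WT replicate 3 its edgeR FDR in OVE853 was 0.111. Of 18 carriers that use the sodium gradient, 7 were tested. Slc24a3, a sodium/calcium/potassium exchanger, fell and was called in both lines (-1.44 and -1.66, edgeR FDR 0.00701 and 0.00111). By FDR alone the bicarbonate carrier Slc4a7 (0.86) and the sodium/proton exchanger Slc9a5 (0.64) rose in OVE853, and in OVE918 the chloride carrier Slc12a2 fell by 0.56. Without WT replicate 3 the edgeR FDR of Slc4a7 in OVE853 was 0.0649. None of the 3 proton-potassium pump genes, relatives of this pump, was tested.

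Per length, the beta subunit pool was mostly Atp1b3. Its share of the summed beta subunit FPKM was 86.6% ± 5.30 (SD, n = 3) in WT, 91.3% ± 0.672 (SD, n = 3) in OVE853 and 90.9% ± 2.23 (SD, n = 4) in OVE918. The Atp1b1 share was 8.44% ± 1.39 (SD, n = 3), 6.75% ± 0.199 (SD, n = 3) and 6.24% ± 0.880 (SD, n = 4) in the same order. The Atp1b2 share was 4.94% ± 4.04 (SD, n = 3), 1.97% ± 0.473 (SD, n = 3) and 2.90% ± 1.38 (SD, n = 4). A two-sided exact permutation test over the libraries gave p from 0.1 to 0.457 for the 6 differences from WT, where the smallest p possible is 0.1 for OVE853 and 0.0571 for OVE918. None of these shifts passed the test, and at a threshold of 0.05 neither design could have passed it. Without WT replicate 3 the Atp1b2 share in OVE918 was 0.289 percentage points above WT instead of 2.04 below.

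The summed beta subunit level was 759.8 FPKM ± 65.3 (SD, n = 3) in WT, 582.8 ± 26.6 (SD, n = 3) in OVE853 and 450.4 ± 10.3 (SD, n = 4) in OVE918. The summed FXYD level was 43.2 FPKM ± 14.1 (SD, n = 3), 38.7 ± 5.26 (SD, n = 3) and 74.7 ± 19.7 (SD, n = 4) in the same order. The lowest summed beta level in WT, 690.3, was above the highest in OVE853, 605.3, and the lowest there, 553.4, was above the highest in OVE918, 462.5, whereas the summed FXYD levels of WT and OVE918 overlapped through WT replicate 3 alone, at 59.1 FPKM, with the other WT pools at 32.3 and 38.1 FPKM and OVE918 from 52.3 to 98.3 FPKM. These sums were not tested. Fxyd1 held 81.8%, 84.2% and 87.2% of the summed FXYD level, and Fxyd5 held 0.823%, 4.82% and 5.54%.

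**Figure D3:**
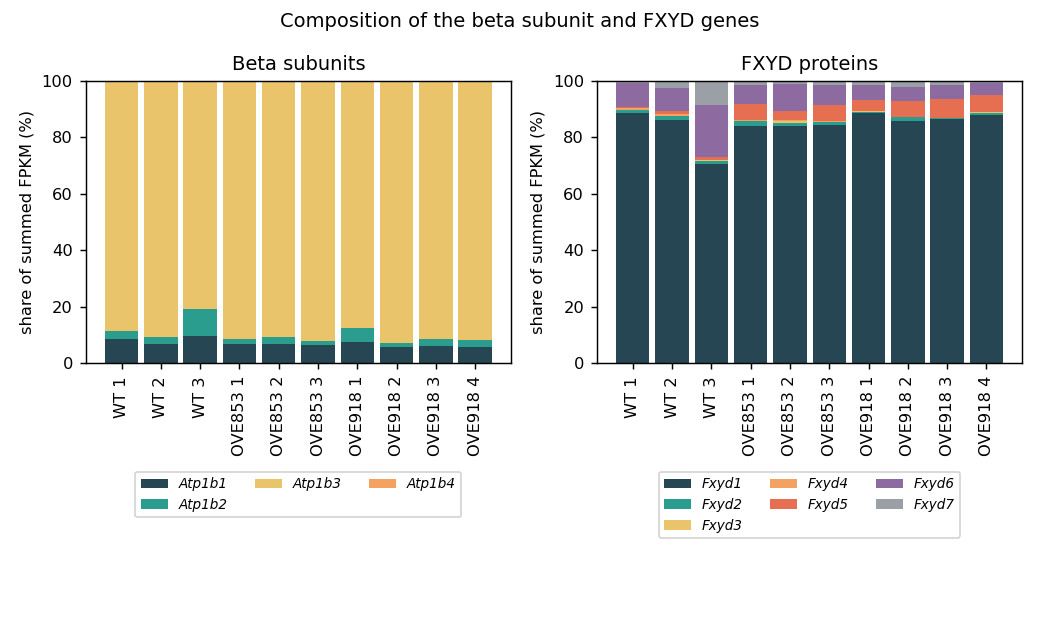
Share of each gene in the summed FPKM (%) of the beta subunits (left) and FXYD genes (right), 1 bar per library. Atp1b3 fills 80.6% to 92.7% of the beta bars, and Fxyd6 and Fxyd7 take a larger part in WT replicate 3 than in either transgenic line.

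Levels in WT replicate 3 were compared with the mean of WT replicates 1 and 2. The ratio was 4.15 for Atp1b2, 3.74 for Fxyd6 and 8.28 for Fxyd7, and 1.43, 1.01 and 1.36 for Atp1b1, Atp1b3 and Fxyd1. Over all genes tested the median ratio was 1.01 and 3.06% of genes exceeded 2. The summed level of the 9 retinal neuron markers had a ratio of 9.22, the 4 Müller glia markers 3.29, the 5 endothelium markers 5.92 and the 6 lens epithelium markers 0.991. All 9 retinal neuron markers were detected in every library, with sums of 29.6 to 74.6 CPM in OVE853 and 157.2, 33.7, 57.7 and 61.7 CPM in OVE918. OVE918 replicate 1 was the highest of its group for these markers and for the Müller glia, lens epithelium and lens fiber markers. That pool was also the highest of its group for Atp1b2, Atp1b1, Fxyd6 and Fxyd7. The part of retinal cells in the levels of these genes was not tested.

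Markers of the non-pigmented ciliary epithelium, a neighbour of the lens that pumps sodium into the aqueous humor, differed in level between the groups. Their sum over 5 genes, all detected in every library, was 824.1 to 1214.6 CPM in WT, 242.6 to 281.9 CPM in OVE853 and 179.1 to 302.7 CPM in OVE918. The WT range lay above both lines, as it did for Atp1b1 and Atp1b3. Summed Müller glia markers also lay higher in WT, at 464.2 to 1529.7 CPM, than in OVE853, at 224.9 to 251.1 CPM, and OVE918, at 127.0 to 232.5 CPM. From these same libraries, the paper reports the ciliary markers Best2, Slc6a13 and Wfdc1 as reduced in both lines. It also reports the Müller glia markers Rlbp1 and Slc1a3 as reduced. The lower sums in both lines therefore follow in part from the choice of markers. Lens epithelium markers summed to 153518.7 to 158665.3 CPM in WT, 103613.7 to 118139.2 CPM in OVE853 and 128025.0 to 195414.1 CPM in OVE918, so the OVE853 range lay below WT. This list mixes the alpha crystallin genes Cryaa and Cryab with Cdh1 and Gja1, which the paper reports as reduced under TGF-β1 overexpression. The sum does not show how each gene of the list moved. The part of ciliary cells, glia or lens epithelial cells in the levels of these genes was not tested.

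**Figure D4:**
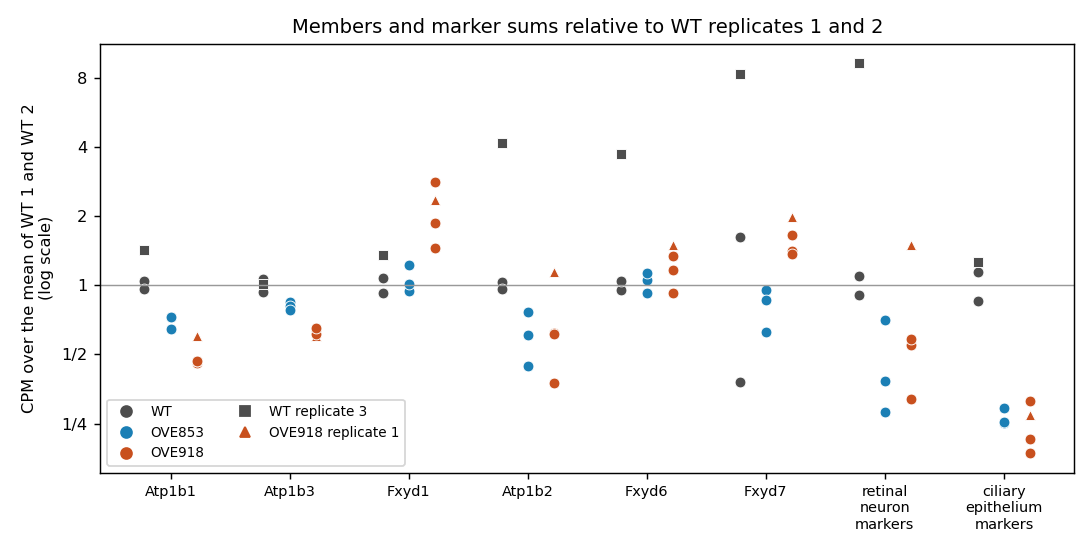
CPM of the 6 members and of the summed retinal neuron and ciliary epithelium markers in each library, divided by the mean of WT replicates 1 and 2, on a log scale. The square is WT replicate 3 and the triangle OVE918 replicate 1. The square is at 4.15, 3.74 and 8.28 for Atp1b2, Fxyd6 and Fxyd7 and at 9.22 for retinal neuron markers. The ciliary marker sum is lower in both lines than in every WT pool. Its list includes Best2, Slc6a13 and Wfdc1, which the paper reports as reduced in both lines from these same libraries.

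For each member tested, the 3 genes with the most similar pattern were found by Pearson r of log2 CPM over the 10 libraries. These libraries share groups and WT replicate 3, so the values are descriptions. Atp1b1 was most like Tspan9 (r = 0.993), Slc6a9 (0.988) and Tmem185a (0.983), and Atp1b3 most like Ctf1 (0.977), St3gal5 (0.974) and Csad (0.973). Atp1b2 was most like Syt1 (0.993), the synaptotagmin of synaptic vesicles and one of the retinal neuron markers above, followed by Tbkbp1 (0.986) and Gnao1 (0.983). Fxyd1 was most like Rab3b (0.965), Kcnj14 (0.963) and the water channel gene Aqp5 (0.955). Fxyd6 was most like Wars1 (0.983), Syngr1 (0.981), which encodes a synaptic vesicle protein, and Atp6v0c (0.976).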

How the data were processed

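RNA was sequenced from pooled lens epithelial explants of WT, OVE853 and OVE918 mice (n = 3, 3 and 4 pools). The authors trimmed paired reads with Cutadapt 5.2, aligned them with STAR 2.7.11b to GRCm39 and counted read pairs on exons by strand with featureCounts 2.0.8, and the deposited counts per gene are not normalized. The RefSeq annotation they used was not used here, and all 10 columns were matched to samples by name.

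The counts were fitted in edgeR 4.0.16 under R 4.3.3, with TMM factors, a robust quasi-likelihood fit of the 3 groups, and Benjamini-Hochberg adjustment within each contrast. A gene was tested if 5 of 10 libraries reached 2 FPKM. Exon lengths for FPKM came from the Primary transcripts that GENCODE vM39 marks, with symbols matching for 43252 genes and RefSeq synonyms for 22, with 7489 genes left without a length and outside the test. Log2 CPM used a prior count of 2. The SE is the fold change divided by the root of F. Alternatives were DESeq2 1.42.0, other scalings, filters and lengths, a replicate block, and leaving out each library. Intervals and limits of 3 counts cover counting error only.

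Same-numbered libraries did not deviate together (correlations from -0.303 to 0.0836), so they were not paired. On simulated counts of 11098 genes with 200 changed 4-fold, 193 were recovered in OVE853 and 194 in OVE918, with 2 and 1 false calls. Smaller changes, such as those of Atp1b1, Atp1b3 and Fxyd1, were not simulated. The members and lists were chosen with earlier results of these data known. Named genes are the members, fixed lists of pump, FXYD, regulator, calcium pump and carrier genes, Tgfb1, and the 3 genes most correlated with each member tested. Some genes of these lists are not reported here.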

Additional observations from a re-analysis of the deposited data

Results flagged for a closer look

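Among 9 values of the members in the 4 OVE918 pools that were checked for a sample far from the others, 2 stood out, and chance alone gives about 1 in 20. OVE918 replicate 1 had 87.4 CPM of Atp1b1, while the other 3 pools lay between 66.9 and 68.0 CPM. In the same pool Atp1b1 made up 7.54% of the summed beta subunit FPKM, against 5.70% to 6.00% in the other 3. The 2 values share the Atp1b1 level and are not independent. This pool also had the highest sums of its group for markers of retinal neurons (157.2 CPM), Müller glia (232.5 CPM), lens epithelium (195414.1 CPM) and lens fiber cells (33423.1 CPM). The part of any of these cells in the Atp1b1 level was not tested. Without this pool the Atp1b1 log2 fold change in OVE918 was -1.30 (edgeR FDR 0.000339).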

How the results depend on the processing

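Of the 447 values recomputed, 409 counted as unchanged. For a log2 fold change this meant the same sign and the same call, also where it was never called. For a share difference it meant the same sign, and for a count of members called the same count. An FDR could cross 0.05 within this rule, as for Atp1b1 in OVE853 without OVE853 replicate 3 (edgeR FDR 0.059). Atp1b1 and Atp1b3 in OVE918 passed the FDR of 0.05 under all 22 alternatives (log2 fold change from -1.30 to -1.0 and from -0.73 to -0.64), and Atp1b1 stayed called. Other scalings left the median of all genes within 0.055 of 0. Members called in OVE853 numbered 1 with DESeq2 (Atp1b2) and 1 by FDR alone (Atp1b1), and 0 with each library left out. In OVE918 they numbered 2 with DESeq2, 3 by FDR alone, 2 without WT replicate 3 and OVE918 replicate 1 together, 2 with filterByExpr and without WT replicate 3, and 1 to 2 with each library left out, the second gene being Fxyd1 except with DESeq2 (Atp1b2). Between the lines they numbered 1 (Fxyd1) with DESeq2, in a fit of only the groups compared and with filterByExpr and without WT replicate 3, and 0 to 1 with each library left out, 1 being reached without WT replicate 3 or OVE918 replicate 2. The pair of alternatives that combine WT replicate 3 with another change was chosen after seeing the data.

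Signs that turned did so for values that passed no threshold. In OVE853, Fxyd1 was 0.08 without WT replicate 3, 0.00 without OVE853 replicate 2, 0.08 with both WT replicate 3 and OVE918 replicate 1 left out and 0.05 with filterByExpr and without WT replicate 3, and Fxyd6 was 0.05, 0.05 and 0.01 under those that leave out WT replicate 3. In OVE918, Fxyd6 was 0.30, 0.19 and 0.30 and Fxyd7 0.65 there. Between the lines, Atp1b2 was -0.18 without OVE918 replicate 1, alone or with WT replicate 3. With each library left out, share differences from WT in percentage points ran for Atp1b1 from -2.40 to -1.01 in OVE853 and from -2.91 to -1.52 in OVE918, for Atp1b2 from -4.25 to -0.642 and from -3.32 to 0.289, and for Atp1b3 from 1.65 to 6.65 and from 1.23 to 6.23. With each library left out, the range was -0.20 to 0.08 for Fxyd1 and -1.21 to 0.05 for Fxyd6 in OVE853, -0.96 to 0.30 for Fxyd6 in OVE918, and -0.18 to 0.38 for Atp1b2 between the lines. The cause of these changes was not tested.

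With the replicate number as a replicate block, the counts of members called were 0, 1 and 0, and Atp1b1 in OVE918 was -1.16 (edgeR FDR 0.00415). It changed no call of a member. Depth limits Fxyd7, with 4 to 112 counts.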

Other observations

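The 6 further marker lists were summed in each library and, as values with no test, WT replicate 3 was divided by the mean of the other WT pools. The ratio was 0.658 for pigmented epithelium, 2.16 for photoreceptors, 3.39 for corneal epithelium, 1.81 for macrophages, 0.537 for erythrocytes and 0.663 for lens fiber cells. Macrophage markers summed to 13.4 to 32.2 CPM in WT, 36.6 to 52.7 CPM in OVE853 and 23.2 to 60.9 CPM in OVE918.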
